A study of Mus musculus with 6 samples.

Results

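The interferon-gamma induced GTPases were followed through the CD11b hi Tomato-positive cells of the lymph node. The 10 genes examined, of 32287 in the matrix, were 5 guanylate-binding protein genes (Gbp2, Gbp2b, Gbp3, Gbp5 and Gbp7), 4 immunity-related GTPase genes (Irgm1, Irgm2, Igtp and Iigp1) and Irf1, which encodes a transcription factor of the same response and not a GTPase. They were chosen by name and not by their values, although earlier results of these data were known. All 10 were detected, and all 10 passed the filter on low counts.

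The cells came from the inguinal lymph nodes of Cd169Cre/+.Tdtomato fl/fl mice, in which Cre under the control of Cd169 (Siglec1) leaves a permanent Tomato label, so that a labelled cell is of the CD169 lineage but need not express CD169 itself. The conditions compared, with 2 mice in each, were unimmunized mice and mice collected on day 9 after immunization with hen egg lysozyme. The study's methods describe this antigen as linked to an ovalbumin peptide and given in an adjuvant, after transfer of B and T cells. They do not state whether the sequenced mice received cells. Effects of antigen and adjuvant cannot be told apart in this design. All 4 mice carried the same Cre and reporter alleles. Each mouse was stained with 1 hashtag antibody, and all cells were pooled and split over 2 10X capture reactions, so that both conditions were processed together.

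Of 18662 barcodes, 12139 were assigned to 1 mouse and kept: 2828 and 537 cells from unimmunized mice 1 and 2, and 4052 and 4722 cells from immunized mice 1 and 2. Their unique molecular identifiers (UMIs, each 1 counted transcript) summed to between 3817845 and 61983132 per mouse, and the median cell held 5877 and 6280 UMIs in the unimmunized mice against 9674 and 12727.5 in the immunized mice. Cell types were gated on marker genes that include none of the 10 genes, and 5878 cells passed exactly 1 gate. Medullary sinus macrophages (MSMs) had the lowest depth, a median of 2173 UMIs, whereas the medians of the other 13 reported types were between 4365.5 and 15994. Of the MSM markers that were not used in the gate, Cd5l, Fcna and Cd209d were highest in MSMs, Clec1b was lower in MSMs than in 1 other type, and Vsig4 was at 0 in all types. The other gates had most of their check markers highest (alpha-beta T cells 2 of 4), except for 2 gates with none of 4, which are called here C1q-high cells (at least 10 C1q UMIs and at most 1 of 7 marker genes of tingible body macrophages) and Cd209a+ Flt3- cells. TBM-like macrophages are the cells with C1qa and at least 4 of those 7 genes. Between 16.3% and 32.1% of the cells of each reported myeloid type held a UMI of a T, B or natural killer (NK) cell gene (22.8% of MSMs). These shares are not adjusted for depth, which was lowest in MSMs. The neutrophil gate held 23 cells and is not reported.

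Interferon-gamma, released mainly by NK cells and T cells, binds a receptor made of the Ifngr1 and Ifngr2 chains. Genes that answer to it often carry gamma-activated sites (GAS), and IRF1, itself induced by interferon-gamma, binds interferon-stimulated response elements (ISRE), which also answer to type I interferon. In macrophages, immunity-related GTPases and guanylate-binding proteins gather on the vacuoles of intracellular pathogens. Iigp1 encodes an effector GTPase that is loaded onto these vacuoles, and Irgm1, Irgm2 and Igtp encode regulators that restrain the effectors on the cell's own membranes. Gbp2 takes part in vacuole attack, and Gbp5 is known for promoting inflammasome assembly.

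The 5 guanylate-binding protein genes lie in 1 cluster of 144 kb on mouse chromosome 3 (GRCm38, chr3:142493978-142638008). Irgm1 (chr11:48861968-48871683, minus strand), Irf1 (chr11:53770014-53778374), Igtp (chr11:58199556-58207591) and Irgm2 (chr11:58199618-58222782) share chromosome 11. Exons of Igtp and Irgm2 overlap on the same strand, so the division of reads between these genes is uncertain. Exons of Gbp7 overlap those of Gm43802 on the same strand, and Gbp2 and Irf1 overlap Mir6381 and Gm17334 on the opposite strand.

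RefSeq (GRCm38.p6) gave 11 promoters for 9 of the 10 genes, and the 250 bases before each start site were searched on both strands for GAS (TTCNNNGAA) and ISRE (a GAAA, any 2 bases, and another GAAA). The gene positions above come from another annotation, by which all 250 bases of the Irgm1 window lie in an exon. So do 61 bases of the Gbp2 window, 34 of the Gbp5 window and 18 of the Gbp3 window with matches. A GAS match was present in 5 of the 9 genes and an ISRE match in 8, with both in Gbp5, Gbp7, Igtp and Irgm2. Among all 32851 promoters of the table, 7.02% held the GAS letters, 2.98% the ISRE letters, and 0.222% the longer ISRE form that ends in GAAACT, which Gbp5, Gbp7, Gbp3, Gbp2 and Irgm1 held. The 30 bases around 1 match or group of matches in each gene are shown to set the matched letters side by side. Neither motif was found in all 9 genes, and other shared sequence was not searched for. Capitals mark the bases of a GAS or ISRE match on either strand, and an ISRE read on the opposite strand appears as TTTC repeats.
Gbp5 (chr3:142496759-142496788, plus strand): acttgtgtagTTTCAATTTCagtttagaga
Gbp7 (chr3:142530273-142530302, plus strand): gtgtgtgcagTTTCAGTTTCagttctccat
Gbp3 (chr3:142559992-142560021, plus strand): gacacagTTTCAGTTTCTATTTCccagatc
Gbp2b (chr3:142594700-142594729, plus strand): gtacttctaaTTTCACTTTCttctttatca
Gbp2 (chr3:142620594-142620623, plus strand): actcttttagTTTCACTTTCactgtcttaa
Irgm1 (chr11:48871428-48871457, minus strand): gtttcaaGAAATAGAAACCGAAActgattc
Igtp (chr11:58199506-58199535, plus strand): gccatTTCTAGGAActGAAACTGAAAgctg
Irgm2 (chr11:58214897-58214926, plus strand): gccatTTCCAGGAActGAAACTGAAAgctg
Irf1 (chr11:53769913-53769942, plus strand): aacagcctgatTTCCCCGAAatgatgaggc

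In Gbp3 and in Irgm1, 2 ISRE matches share letters. The Igtp and Irgm2 sites, each with a GAS followed by an ISRE, differed at 1 of 30 bases. Irf1 held a GAS alone, at bases -90 to -82 from its start, whereas Gbp2b and Gbp2, which are neighbours on the chromosome, each held an ISRE alone, at -137 to -128 and at -59 to -50. A match of letters is a description of the sequence and does not show that a factor was bound there.

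**Figure D1:**
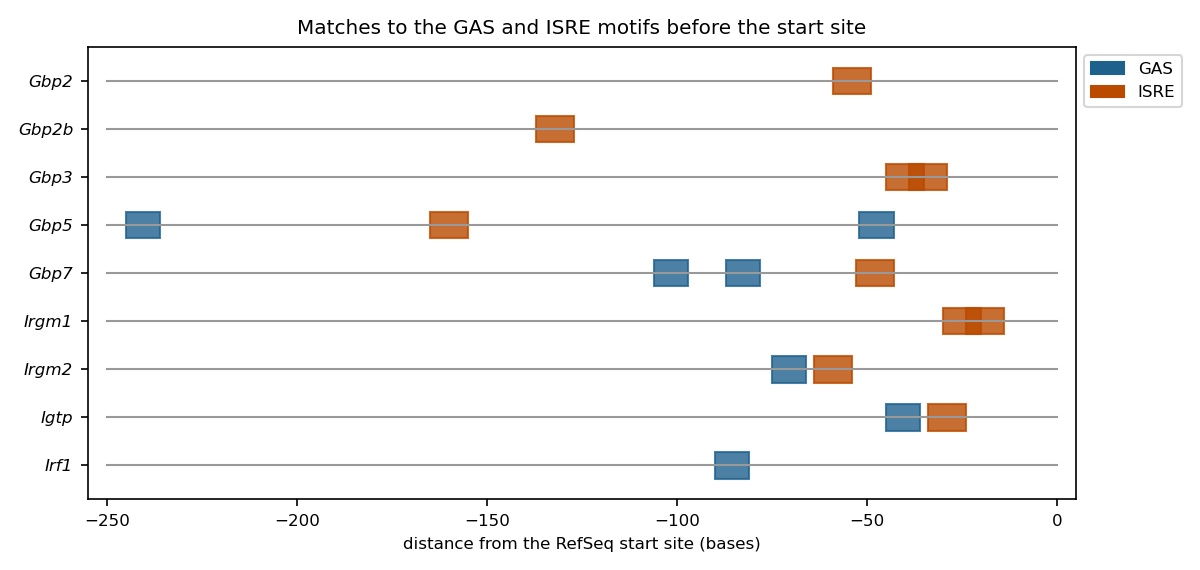
Matches to GAS and ISRE letters in the 250 bases before the start site of 9 genes, drawn by distance from the start site in bases. ISRE matches were found in 8 genes and GAS matches in 5, and the first Irf1 promoter is the only one with a GAS and no ISRE.

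Whole promoters are shown for the 3 genes to which the cell type results below return, with the matches in capitals.
Gbp2b promoter (chr3:142594597-142594846, plus strand): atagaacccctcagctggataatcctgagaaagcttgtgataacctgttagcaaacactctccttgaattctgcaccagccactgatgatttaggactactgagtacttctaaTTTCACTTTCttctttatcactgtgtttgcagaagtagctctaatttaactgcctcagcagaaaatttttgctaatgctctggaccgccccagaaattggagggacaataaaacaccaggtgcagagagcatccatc
Gbp7 promoter (chr3:142530086-142530335, plus strand): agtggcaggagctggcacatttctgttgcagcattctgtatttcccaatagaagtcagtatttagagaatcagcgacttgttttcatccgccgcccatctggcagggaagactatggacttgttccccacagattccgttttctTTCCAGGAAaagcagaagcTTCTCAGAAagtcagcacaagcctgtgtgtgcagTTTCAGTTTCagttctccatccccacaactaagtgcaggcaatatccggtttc
Irf1 promoter (chr11:53769764-53770013, plus strand): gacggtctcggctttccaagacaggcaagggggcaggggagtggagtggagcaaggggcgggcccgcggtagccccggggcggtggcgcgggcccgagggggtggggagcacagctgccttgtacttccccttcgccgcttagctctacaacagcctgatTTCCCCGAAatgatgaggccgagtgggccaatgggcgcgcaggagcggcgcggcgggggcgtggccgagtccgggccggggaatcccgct

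Levels are given in CPM, a gene's share of a type's summed UMIs in 1 mouse on the usual scale, and are compared only within a gene. In classical monocytes, the Ly6c2+ Ccr2+ cells, Gbp2 was at 217 and 649 CPM in immunized mice 1 and 2 and at 171 and 210 CPM in unimmunized mice 1 and 2. Iigp1 was at 142 and 523 CPM in the immunized and at 101 and 50.8 CPM in the unimmunized mice. Immunized mouse 2 stood highest for both genes, and the lower immunized mouse was close to the unimmunized mice for Gbp2.

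Pooled over the mice, Gbp2, Gbp5, Iigp1 and Irf1 were all highest in the Nos2+ Acod1+ macrophages, a gate for the enzymes of nitric oxide and itaconate production. Gbp3, Gbp7, Irgm1 and Igtp were also highest there when pooled, but the MSM pool rests mainly on the unimmunized mice. Within immunized mouse 2, the 15 MSMs had more Gbp3 (300 against 149 CPM) and Gbp7 (383 against 272 CPM) than the Nos2+ Acod1+ macrophages. Nos2 is itself a target of interferon-gamma, so this gate is not independent of the levels of these genes. This gate held 92 cells in a library of its own, all from immunized mouse 2, so no other mouse could be set beside it. Gbp2 was at 965 CPM there, Iigp1 at 755 CPM, Gbp5 at 424 CPM and Irf1 at 392 CPM. Gbp2b was at 17.6 CPM in the same cells. Of the other libraries of immunized mouse 2, classical monocytes had the highest Gbp2 (649 CPM), Iigp1 (523 CPM) and Gbp5 (216 CPM). Migratory dendritic cells had the highest Irf1 (348 CPM).

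Gbp2b had a different order. Its pooled level was highest in MSMs (130 CPM). In MSMs it was at 231 and 167 CPM in immunized mice 1 and 2, and at 96.9 and 82.0 CPM in unimmunized mice 1 and 2, from 66, 10, 77 and 8 UMIs. All 4 mice were therefore above the 37.1 CPM that was its highest level in any classical monocyte library. In NK cells, Gbp2 was at 36.1 and 33.2 CPM in the immunized and at 46.9 and 48.6 CPM in the unimmunized mice.

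When the types with 2 immunized mice were ordered by their mean level, the ranges of adjacent types overlapped for 8 to 10 of the 10 adjacent pairs, depending on the gene, so that the order was resolved between its ends and seldom between neighbours.

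**Figure D2:**
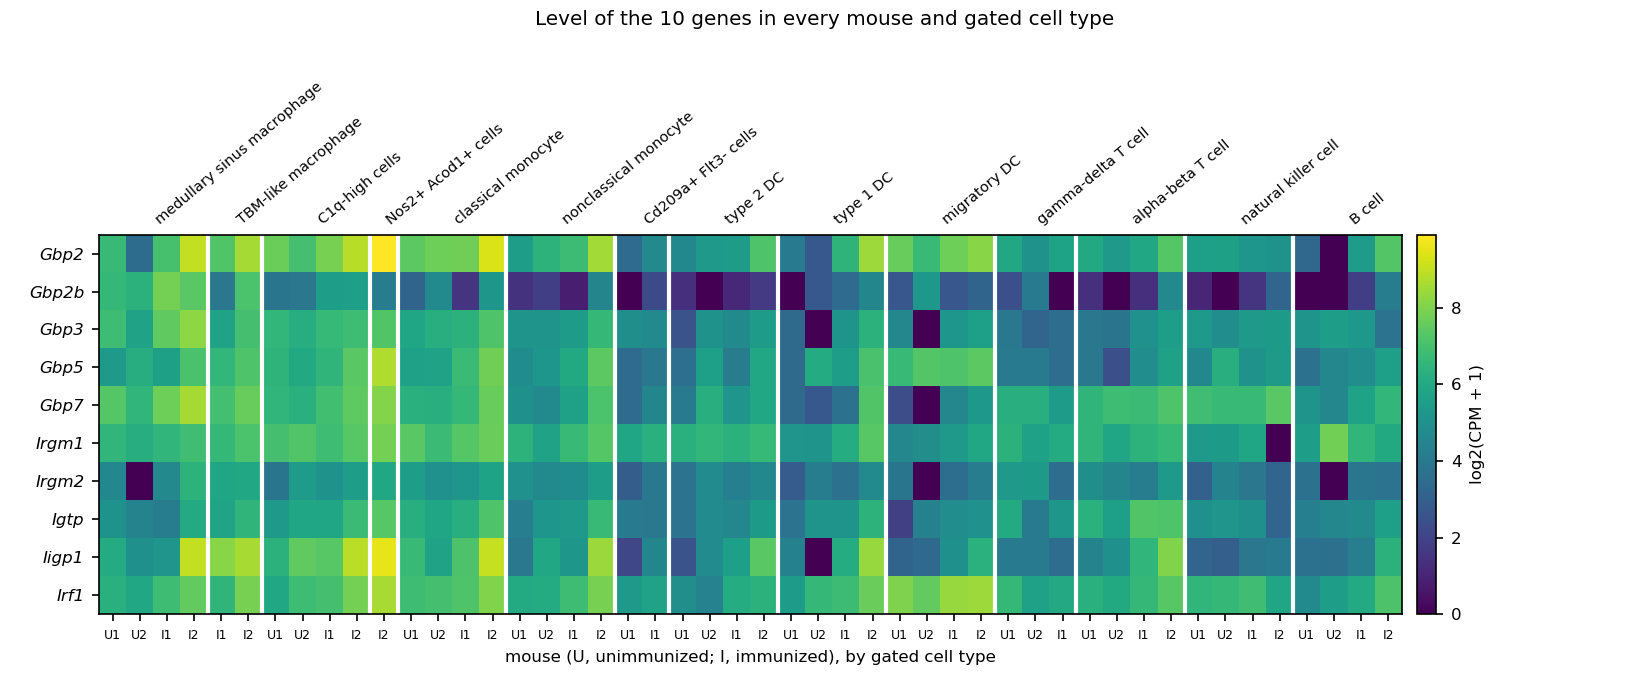
Level of the 10 genes in each gated cell type and mouse, as log2(CPM + 1) on a colour scale, with 1 column for each library of at least 10 cells. Gbp2 (965 CPM) and Iigp1 (755 CPM) are highest in the Nos2+ Acod1+ cells of immunized mouse 2. Iigp1 ranges from 14.7 to 344 CPM in nonclassical monocytes and from 30.7 to 517 CPM in MSMs. Gbp2b is high in MSMs (82.0 to 231 CPM) and low in most other types.

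To ask in which cells each gene was high after immunization, each of 11 types was set against the other 10, averaged with equal weight, in the 2 immunized mice (edgeR's quasi-likelihood test on summed counts, Benjamini-Hochberg adjustment over 10379 genes). Of 110 pairs of gene and type, 18 were higher and 7 lower, against 10.9% higher and 4.68% lower among all genes and types tested. With the mouse as a replicate block, since libraries of 1 mouse come from 1 animal, 24 pairs were higher and 21 lower. The share of all genes called in that fit is not given here. Differences below are log2 fold changes ± SE. The test itself gives no SE, which was taken as the absolute difference divided by the square root of the F statistic.

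In MSMs, Gbp2b was higher by 4.04 ± 0.67 (adjusted p = 4.4e-05), Gbp3 by 1.74 ± 0.36 (adjusted p = 0.000885) and Gbp7 by 1.34 ± 0.40 (adjusted p = 0.0238), against 6.2% of all genes. The 3 genes are members of the chromosome 3 cluster. Gbp3 was at 179 and 300 CPM in immunized mice 1 and 2 and at 113 and 51.2 CPM in unimmunized mice 1 and 2. Gbp7 was at 210 and 383 CPM in the immunized and at 159 and 92.2 CPM in the unimmunized mice. Gbp2 and Gbp5 of the same cluster did not pass the test in MSMs, with differences of 0.39 ± 0.56 and -0.34 ± 0.58. The Gbp7 call was lost when immunized mouse 1 or either unimmunized mouse was left out, with differences between 1.33 and 1.45, whereas the calls of Gbp2b and Gbp3 passed in every alternative that included MSMs. The library of immunized mouse 2 held 15 MSMs and 59976 UMIs, the fewest of the 48 libraries fitted. In the MSM libraries the T cell gene Cd3e was at 59.5 CPM and 0 in immunized mice 1 and 2. It was at 111 and 71.7 CPM in unimmunized mice 1 and 2. Lyz2, a gene of monocytes and macrophages, was at 6438 and 18224 CPM in the immunized and at 5769 and 10295 CPM in the unimmunized mice. The part of other cells in the MSM levels was not tested.

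Gbp2b was also higher in TBM-like macrophages by 2.65 ± 0.62 (adjusted p = 0.00252), and in C1q-high cells by 1.79 ± 0.52 (adjusted p = 0.0202). Tingible body macrophages take up apoptotic cells in the germinal centre, but neither place nor uptake was measured for the gated cells. In TBM-like macrophages the 2 mice were far apart, at 14.2 CPM in immunized mouse 1 (5 UMIs) and 137 CPM in immunized mouse 2 (87 UMIs). Without immunized mouse 2 the difference was 1.40 and the call was lost (adjusted p = 0.463). Irgm2 was higher in TBM-like macrophages by 1.21 ± 0.32 (adjusted p = 0.00918), from 56.6 and 61.3 CPM. This call was lost without immunized mouse 1 (1.08). DESeq2 kept the Irgm2 call and lost that of Gbp2b (2.52, adjusted p = 0.16). C1q-high cells also had higher Iigp1 (1.45 ± 0.46, adjusted p = 0.0333) and Gbp3 (0.77 ± 0.25, adjusted p = 0.0364), in each type against 7.64% of all genes. All 3 calls of C1q-high cells were lost with DESeq2 (differences of 0.82 to 1.76, adjusted p between 0.256 and 0.476), and that of Iigp1 also when hashtags were assigned with HTODemux. The Gbp2b and Iigp1 calls were lost without either unimmunized mouse, and the Gbp3 call without immunized mouse 1.

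In classical monocytes 7 of the 10 genes were higher by edgeR, against 10.3% of all genes. These were Iigp1 (1.5 ± 0.45), Gbp2 (1.42 ± 0.35), Gbp5 (1.15 ± 0.28), Igtp (1.10 ± 0.25), Irgm1 (0.92 ± 0.21), Gbp3 (0.86 ± 0.24) and Irgm2 (0.78 ± 0.23), with adjusted p-values between 0.00119 and 0.0173. With DESeq2 the differences were alike but 1 call remained, that of Irgm1, fewer than the 3 that the same tool called in MSMs. With HTODemux 4 remained, those of Gbp2, Gbp5 and Iigp1 being lost. The Iigp1 call was also lost without either unimmunized mouse. Iigp1, which lies apart from the other 9 genes at chr18:60376027-60392634, had the highest edgeR difference of the 7. None of the 10 passed as higher in nonclassical monocytes (8.65% of all genes), conventional type 1 dendritic cells (cDC1s, 5.56%) or B cells (17.2%). At an unadjusted p under 0.05 in either direction, edgeR had 1 of the 10 in nonclassical monocytes (2212 of 10379 genes), 0 in cDC1s (1671 genes) and 3 in B cells (3678 genes), and the 3 in B cells, Gbp5, Gbp3 and Iigp1, all had differences below 0.

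In migratory dendritic cells, which carry antigen to the T cell zone, the genes called higher were Irf1 and Gbp5. Irf1 was at 330 and 348 CPM in immunized mice 1 and 2 and at 256 and 183 CPM in unimmunized mice 1 and 2, and was higher than in the other types by 1.55 ± 0.23 (adjusted p = 9.7e-07). Gbp5 was higher there by 1.39 ± 0.30 (adjusted p = 0.000405), whereas Gbp7 was lower by 1.68 ± 0.41 on the log2 scale (-1.68, adjusted p = 0.00156). Among all genes, 18.8% were higher and 8.68% lower in these cells, so 2 of the 10 higher is near the share of all genes. Irgm1 also passed as lower (-0.85 ± 0.29, adjusted p = 0.0269), but without immunized mouse 1 its difference was 0.21. The Irgm1 and Gbp5 calls were lost with DESeq2 (-0.85, adjusted p = 0.0788, and 1.29, adjusted p = 0.0902), and that of Irgm1 also without either unimmunized mouse.

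In alpha-beta T cells, 1 of the 10 genes was higher, which is under the 19.7% share of all genes. This was Igtp, by 1.71 ± 0.29 (edgeR, adjusted p = 1.4e-05). It was at 148 and 146 CPM in the immunized and at 78.6 and 47.4 CPM in the unimmunized mice. Irgm2, whose exons overlap those of Igtp, differed by 0.15 ± 0.38 in the same cells. Since their exons share positions, reads assigned to one may come from the other.

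NK cells stood at the low end for most of the genes. Gbp7 was an exception, at 103 and 166 CPM in immunized mice 1 and 2, rank 5 of the 11 types by mean. Iigp1 (-3.40 ± 1.08, adjusted p = 0.0213), Gbp2 (-2.54 ± 0.70, adjusted p = 0.00715) and Irgm1 (-1.29 ± 0.39, adjusted p = 0.0147) were lower in NK cells than in the other types, against 6.44% of all genes. Iigp1 rested on 8 and 2 UMIs in the immunized mice and lost its call without either unimmunized mouse. Irgm1 had 32 UMIs in immunized mouse 1 and 0 in immunized mouse 2, and lost its call without immunized mouse 2. In conventional type 2 dendritic cells, Gbp7 (-1.28 ± 0.40, adjusted p = 0.0438) and Irf1 (-1.07 ± 0.32, adjusted p = 0.0282) were lower, against 1.04% of all genes. Both calls were lost with DESeq2 (adjusted p = 0.112 and 0.0622), with HTODemux (0.562 and 0.112) and without either unimmunized mouse, that of Gbp7 also at a limit of 10% mitochondrial UMIs, and that of Irf1 without immunized mouse 2.

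To ask how these genes differed with immunization within a cell type, the test compared 2 immunized with 2 unimmunized mice in each of 10 types, by the same fit. Of 100 pairs of gene and type, 3 were higher in immunized mice and 0 lower, against 0.198% higher and 0.337% lower among all genes and types. At an unadjusted p under 0.05, 8 of the 10 passed in cDC1s (1220 of 10379 genes), 8 in nonclassical monocytes (993 genes), 6 in classical monocytes (1215 genes) and 5 in alpha-beta T cells (792 genes). In the other 6 types 0 to 3 passed, with 0 in NK cells (413 genes). The fitted difference was above 0 in 95 of the 100 pairs. Among all 10379 genes it was above 0 for between 3891 (MSMs) and 5696 (migratory dendritic cells), depending on the type. The pairs come from the same mice and are not independent.

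All 3 calls were in cDC1s, the Xcr1+ Clec9a+ cells that present antigen of dead cells. Gbp2 was at 86.6 and 349 CPM in immunized mice 1 and 2 and at 16.1 and 5.63 CPM in unimmunized mice 1 and 2. Gbp3 was at 34.2 and 81.7 CPM in the immunized and at 9.66 CPM and 0 in the unimmunized mice. Gbp7 was at 12.1 and 147 CPM in the immunized and at 9.66 and 5.63 CPM in the unimmunized mice. The groups did not overlap for any of the 3, but Gbp7 in immunized mouse 1 (6 UMIs) was close to the unimmunized mice.

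The differences in cDC1s were 3.89 ± 0.90 for Gbp2 (adjusted p = 0.0138), 2.87 ± 0.74 for Gbp3 (adjusted p = 0.0341) and 3.08 ± 0.83 for Gbp7 (adjusted p = 0.0456). Of all genes in this type 1.46% were called, 1.22% as higher. From pooled UMIs (231 against 11), Gbp2 was 16.2-fold higher in the immunized mice, with an exact 95% interval of 8.88 to 32.9 that covers counting error only. The same ratio was 7.84 (3.40 to 22.2) for Gbp3 and 9.36 (4.35 to 24.0) for Gbp7. All 3 calls were lost without unimmunized mouse 1 and without unimmunized mouse 2, and those of Gbp3 and Gbp7 without immunized mouse 2, where Gbp7 fell to a difference of 0.52. With HTODemux the calls of Gbp2 and Gbp7 were lost, and with RLE factors, another scaling of library sizes, that of Gbp7 (adjusted p = 0.0569). In the same libraries Lyz2, a gene of monocytes and macrophages, was at 4136 and 14690 CPM in the immunized and at 1305 and 1098 CPM in the unimmunized mice. C1qa, a macrophage gene, was at 286 and 787 CPM against 24.2 and 50.7 CPM. Both genes moved with the result and their part in it was not tested.

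In the other types no difference passed, and the values are given as a description. In classical monocytes Gbp5 was at 106 and 216 CPM in immunized mice 1 and 2 and at 50.4 and 50.8 CPM in unimmunized mice 1 and 2, a difference of 1.72 ± 0.51 that missed the threshold (adjusted p = 0.0569). In nonclassical monocytes, the patrolling cells with Ace and Treml4, Gbp2 was at 111 and 372 CPM against 46.7 and 83.1 CPM, and the difference was 2.03 ± 0.62 (adjusted p = 0.194). Irf1 was there at 114 and 237 CPM against 66.5 and 67.5 CPM (1.42 ± 0.39, adjusted p = 0.121). In alpha-beta T cells Iigp1 was at 91.0 and 260 CPM against 20.8 and 30.2 CPM (3.01 ± 0.97, adjusted p = 0.241). In these T cell libraries Lyz2 was at 1152 and 2806 CPM in the immunized and at 1509 and 1445 CPM in the unimmunized mice. C1qa was at 22.0 and 138 CPM against 21.6 and 17.3 CPM. Both were highest in immunized mouse 2, as Iigp1 was, and their part in its level was not tested.

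The median difference of the 10 genes was 1.67 in nonclassical monocytes (all genes -0.06), 2.31 in cDC1s (-0.05), 1.10 in alpha-beta T cells (-0.05), 0.91 in classical monocytes (-0.07) and 0.87 in MSMs (-0.20). In NK cells it was 0.12, beside -0.11 over all genes. The values of the immunized and unimmunized mice did not overlap, with the immunized mice higher, in 61 of the 100 pairs, against 16.4% of all genes and types. By type, 7 of 10 genes were higher without overlap in classical monocytes (17.9% of all genes), 7 in nonclassical monocytes (16.7%), 8 in cDC1s (19.1%), 6 in MSMs (10.9%) and 3 in NK cells (12.5%). The immunized mice were lower without overlap in 2 of the 100 pairs, Gbp2 and Igtp in NK cells, where this held for 20.8% of all genes.

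**Figure D3:**
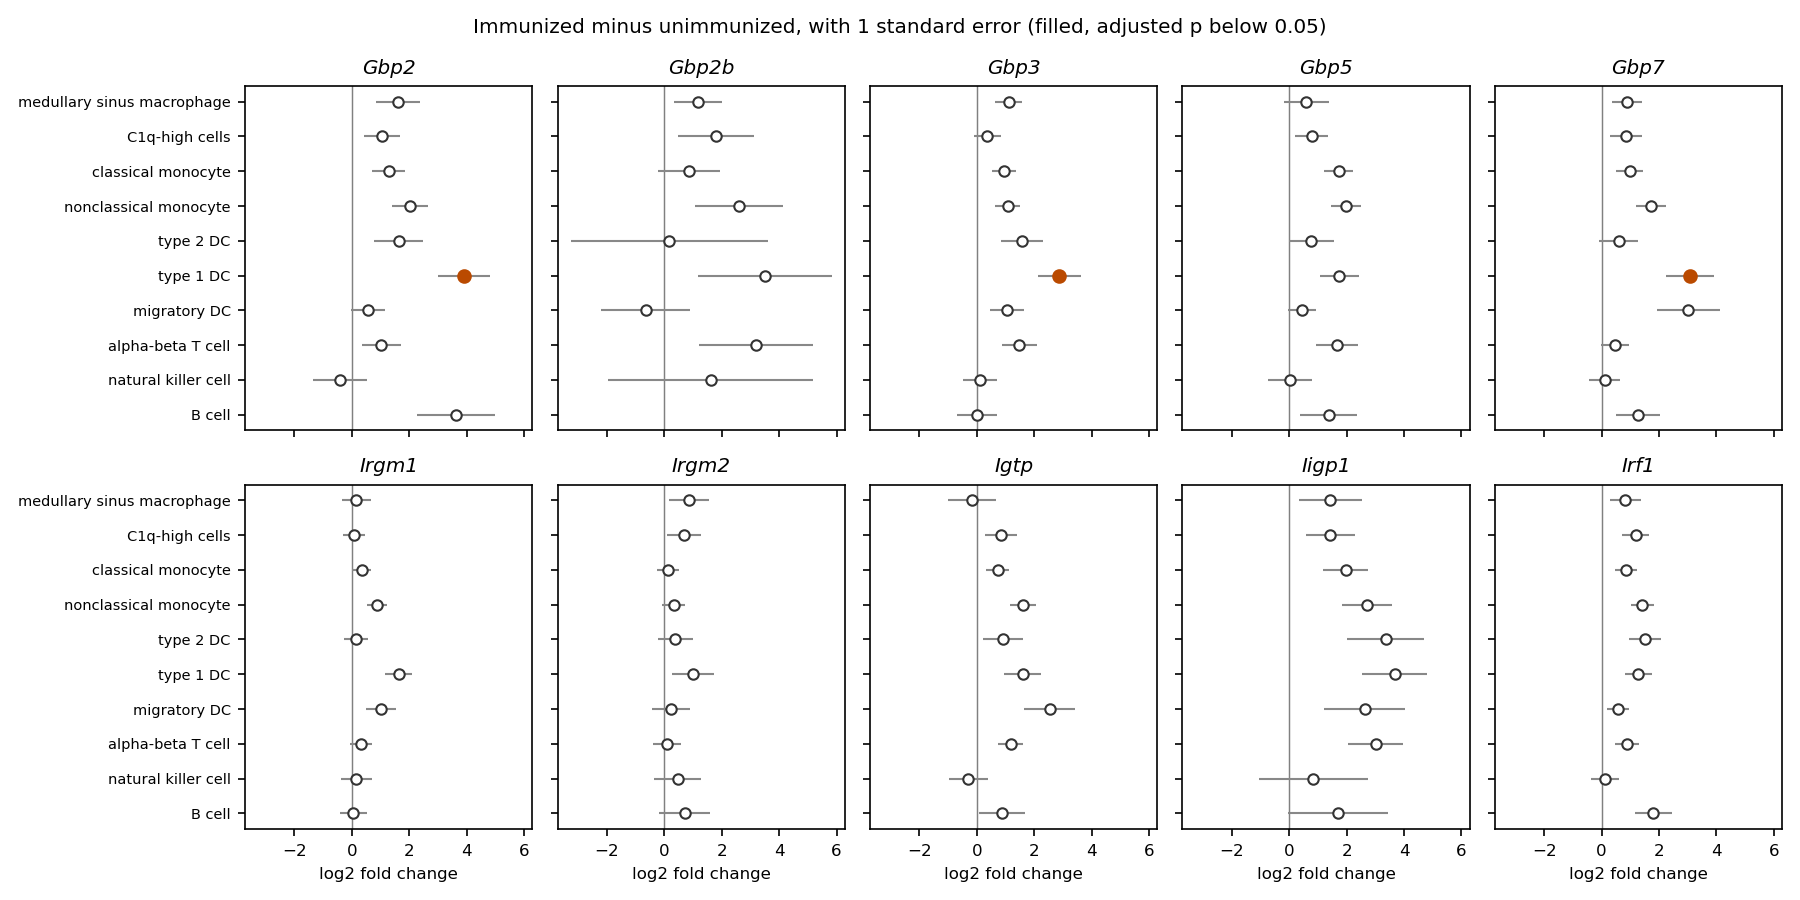
Difference between immunized and unimmunized mice in each cell type, as log2 fold change from edgeR ± SE derived from its F statistic. Filled points have an adjusted p under 0.05, and genes at 0 in both unimmunized mice are not drawn. The filled points are Gbp2 (3.89), Gbp3 (2.87) and Gbp7 (3.08) in cDC1s, most other points lie above 0, and those of NK cells lie around 0.

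Whether the effect of immunization differed between cell types was tested between MSMs and alpha-beta T cells, the types with the most unimmunized cells. None of the 10 genes differed (edgeR, adjusted p between 0.947 and 1), 0.0% of all genes were called, and none of the 10 was at an unadjusted p under 0.05. The differences between the 2 effects ranged from -2.02 ± 2.25 for Gbp2b to 0.78 ± 0.84 for Irgm2, so that large differences could not be detected with these mice.

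In the sum over all kept cells, in which a change in cell makeup and a change in level per cell cannot be told apart, Gbp2 was at 161 and 504 CPM in immunized mice 1 and 2 and at 88.1 and 82.0 CPM in unimmunized mice 1 and 2. Iigp1 was at 101 and 462 CPM against 37.9 and 42.7 CPM. Of the 10 genes, 9 were higher without overlap, the exception being Gbp2b at 10.8 and 38.9 CPM against 11.2 and 10.2 CPM. Among the 10379 genes of the fit by type, 17.5% were higher and 52.4% lower without overlap in this sum. None of the 10 passed the adjusted test and 0.0% of 13596 genes were called, although 8 of the 10 and 3894 of all genes were at an unadjusted p under 0.05. The adjusted p-values of the 10 genes were between 0.107 and 0.214, and their median difference was 1.47 (all genes -0.02). DESeq2 called 8 of the 10, and 1557 of the 13596 genes. Classical monocytes made up 17.3% and 17.8% of the kept cells of the immunized mice, and 3.50% and 2.79% of those of the unimmunized mice.

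The 2 immunized mice stood apart from each other. All 10 genes were higher in immunized mouse 2 than in immunized mouse 1 in TBM-like macrophages, C1q-high cells, classical and nonclassical monocytes, both conventional dendritic cell types and migratory dendritic cells. In MSMs and alpha-beta T cells this held for 9 of 10, in B cells for 7 and in NK cells for 5. The median difference of the 10 genes between the 2 mice was 1.00 on the log2 scale in classical monocytes (all genes 0.01), and 1.98% of all genes lay above it. In nonclassical monocytes the median was 1.36 (all genes -0.01), with 1.14% of genes above it, and in NK cells it was -0.03, with 50.6% above it. Iigp1 in nonclassical monocytes was at 36.8 CPM in mouse 1 and at 344 CPM in mouse 2, the level of mouse 1 lying between those of unimmunized mice 1 (14.7 CPM) and 2 (59.7 CPM). The capture reactions gave like values, for example 498.5 and 509.5 CPM of Gbp2 over all cells of immunized mouse 2. With 2 mice no test of the difference between them was possible.

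**Figure D4:**
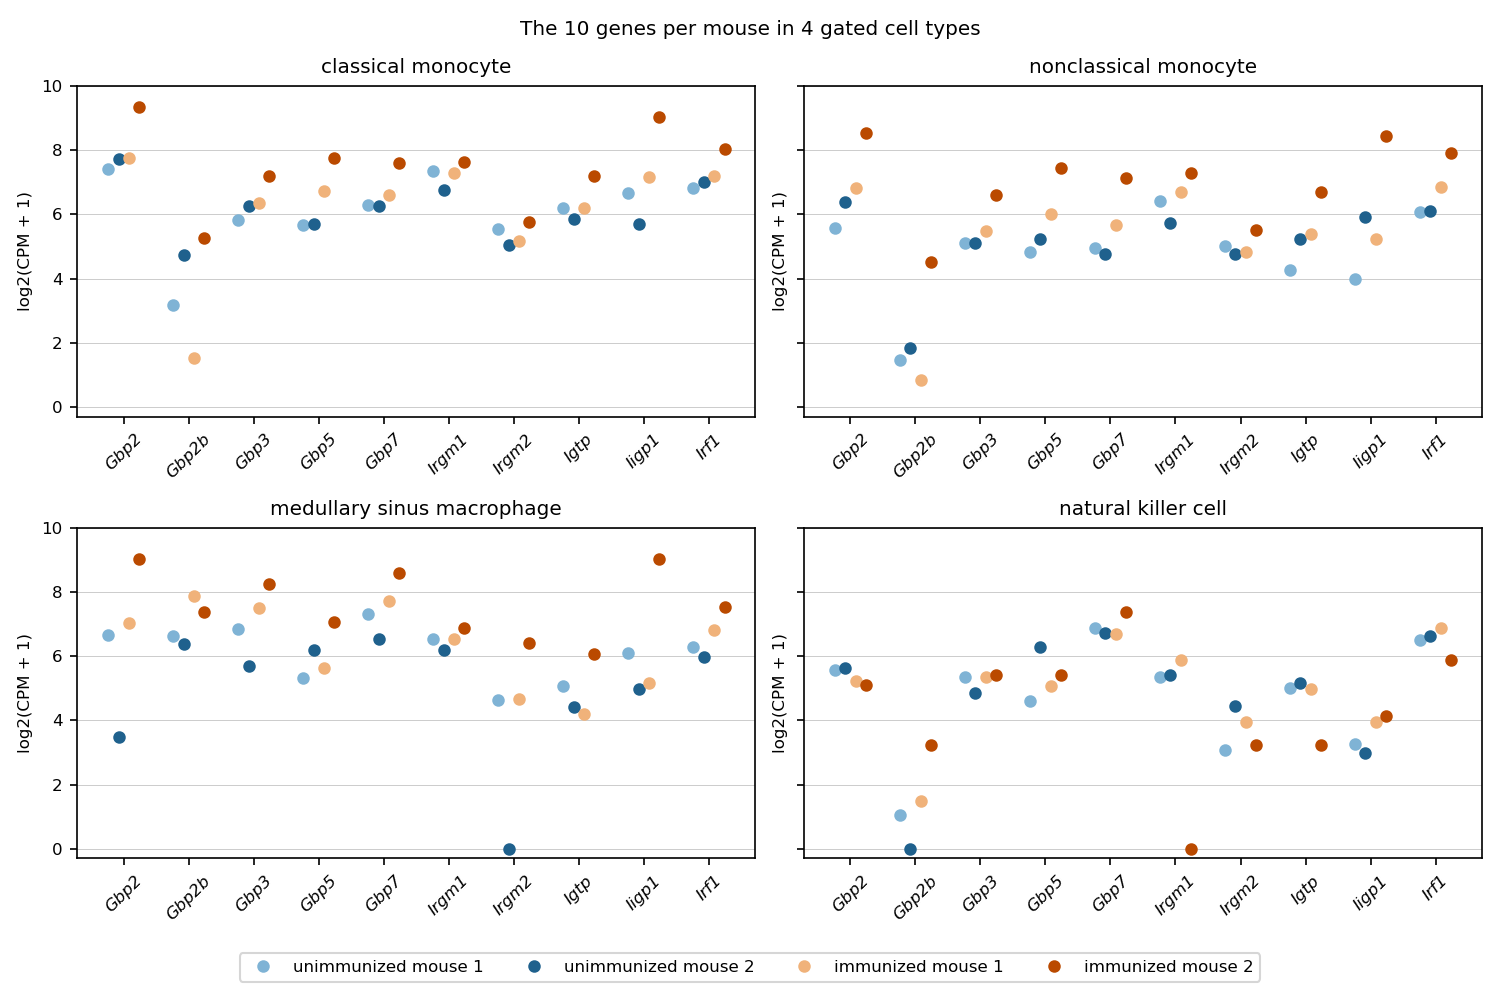
Level of each of the 10 genes in the 4 mice, as log2(CPM + 1), in classical monocytes, nonclassical monocytes, MSMs and NK cells, with 1 point for each mouse. In both monocyte types immunized mouse 2 is the highest of the 4 mice for all 10 genes, whereas in NK cells the mice are mixed.

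To see whether the genes were detected in the same cells, every cell was thinned to 1000 UMIs and the share of cells with at least 3 of the 10 genes was taken, 7 MSMs of unimmunized mouse 1 with fewer UMIs being left out. The share was 42.4% in the Nos2+ Acod1+ macrophages, whose gate requires Nos2, a gene of the same response. In classical monocytes it was 6.85% and 28.7% in immunized mice 1 and 2, and 4.04% and 6.67% in unimmunized mice 1 and 2. In nonclassical monocytes it was 2.26% and 20% against 0.621% and 0. In NK cells it was 0 in both immunized mice and 0.637% and 0 in the unimmunized mice, which serves as a low reference, since none of the types is known to lack the genes altogether. Conventional type 2 dendritic cells were also low, at 0.725% and 0 in the immunized and at 0 in both unimmunized mice.

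Without thinning the shares were 76.6% and 94.6% against 61.6% and 60.0% in classical monocytes, and 32.3% and 25% against 25.5% and 33.3% in NK cells. A design of 2 mice against 2 cannot go below a two-sided exact permutation p of 0.33, so the shares are a description. They follow the levels: the mouse with the highest levels, immunized mouse 2, also had the highest share in both monocyte types, in C1q-high cells, TBM-like macrophages, cDC1s and alpha-beta T cells.

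**Figure D5:**
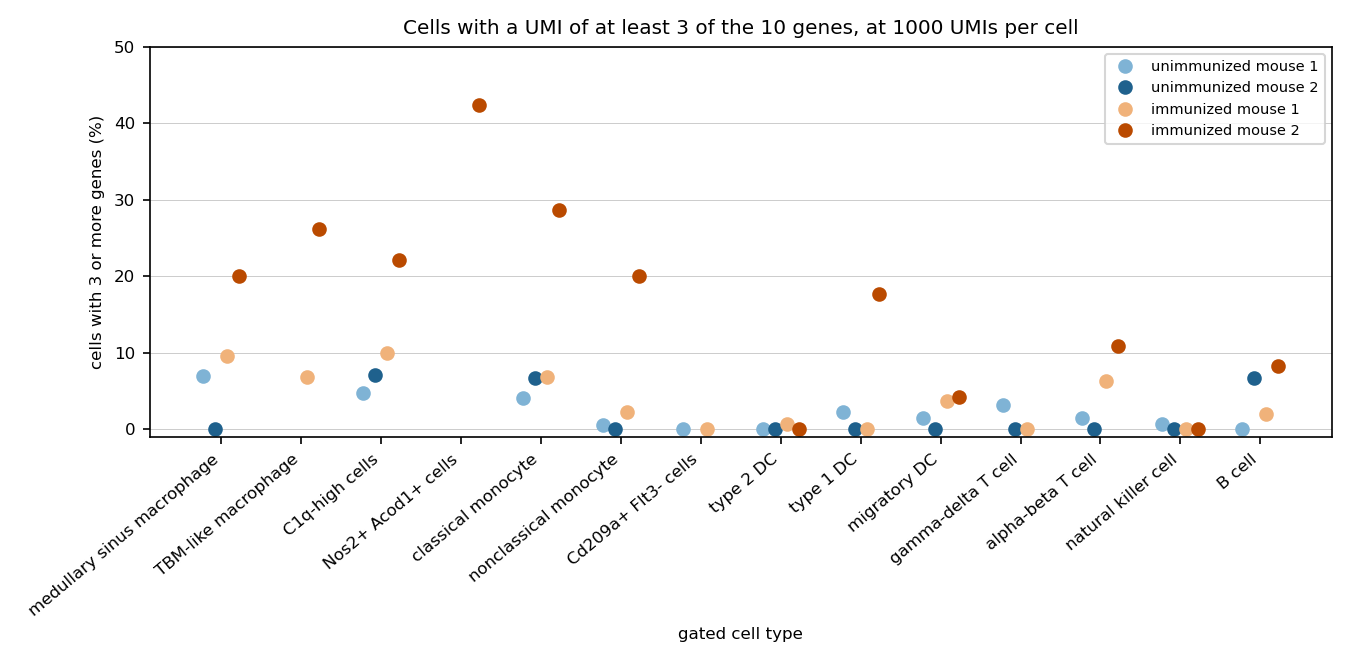
Percentage of cells with a UMI of at least 3 of the 10 genes after thinning to 1000 UMIs, by cell type, with 1 point for each mouse. The Nos2+ Acod1+ macrophages (42.4%, 1 mouse) are highest, in a gate that requires Nos2, itself a target of interferon-gamma. Immunized mouse 2 is above the other mice in classical (28.7%) and nonclassical (20%) monocytes, and NK cells are at or near 0.

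The ligand and its receptor were measured in the same libraries. Ifng was found in NK cells (85 UMIs, 48.4 CPM pooled) and alpha-beta T cells (42 UMIs, 15.8 CPM), with at most 5 UMIs in any other type. In alpha-beta T cells it was at 31.4 and 39.1 CPM in immunized mice 1 and 2, from 20 and 19 UMIs, and at 1.54 and 4.31 CPM in unimmunized mice 1 and 2, from 2 and 1 UMIs. The difference was 4.14 ± 0.88 (adjusted p = 0.0285), in a type with 0.462% of all genes called, 0.193% as higher. In NK cells Ifng was at 59.5 and 16.6 CPM in the immunized and at 40.5 and 83.2 CPM in the unimmunized mice, and these ranges overlap. Of the immunized mice, mouse 1 had the higher level in NK cells and mouse 2 in alpha-beta T cells, but neither order was tested. The T cell levels rest on nearly equal UMIs, and the NK library of immunized mouse 2 held 20 cells. Ifng also passed as lower in classical monocytes, but on 5 UMIs in all, from unimmunized mouse 1, whose library also held the T cell gene Cd3e at 61.5 CPM against 4.00 and 2.24 CPM in the immunized mice.

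Ifngr1, the ligand-binding chain, was highest in nonclassical monocytes (429 CPM pooled) and lowest in migratory dendritic cells (57.7 CPM), in which Irf1 was high. Ifngr2, the signalling chain, was highest in classical monocytes (176 CPM) and lowest in NK cells (14.8 CPM). In most myeloid types these pooled levels rest mainly on the immunized mice. Those of MSMs rest mainly on the unimmunized mice (794799 and 97618 UMIs, against 285646 and 59976 in the immunized mice). Those of cDC1s and Cd209a+ Flt3- cells rest on both conditions. None of these pooled levels was tested.

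Other GTPase genes of both families were measured for 14 of 16 listed. In classical monocytes 1 of 12 that passed the filter was called higher after immunization, Gbp6 (2.42 ± 0.69, adjusted p = 0.0441). Its levels were 27.5 and 69.3 CPM in immunized mice 1 and 2 and 11.1 CPM and 0 in unimmunized mice 1 and 2. Of all genes in classical monocytes 2.77% were called, 0.173% as higher and 2.59% as lower. In cDC1s 2 of 12 were called, Ifi47, an immunity-related GTPase gene (2.70 ± 0.65, adjusted p = 0.0192), and Tgtp2, which has a near-identical copy, Tgtp1, so that its counts are uncertain. The median difference of the 12 was 1.60 in nonclassical monocytes and 2.49 in cDC1s, and -0.11 in MSMs, where the median of the 10 genes was 0.87.

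Among 18 further targets of interferon-gamma that passed the filter, Cxcl9, a chemokine that draws T cells, was at 348 and 1515 CPM in nonclassical monocytes of immunized mice 1 and 2 and at 75.2 and 83.1 CPM in unimmunized mice 1 and 2. It was the only one of the 18 called there (3.59 ± 0.77, adjusted p = 0.0441, 0.0867% of all genes called, 0.0289% as higher). In migratory dendritic cells 2 of the 18 were called, Cxcl9 (4.14 ± 0.88, adjusted p = 0.0171) and Psmb10, an immunoproteasome subunit gene (1.22 ± 0.28, adjusted p = 0.0258). Of all genes 0.482% were called, 0.356% as higher. In these libraries Lyz2 was at 3603 and 6401 CPM in the immunized and at 861 and 510 CPM in the unimmunized mice, and C1qa at 78.4 and 148 CPM against 13.5 CPM and 0. Both moved with the calls, and their part in them was not tested. In cDC1s 2 were called, Fcgr1 and Slfn2, and in alpha-beta T cells 1, the immunoproteasome subunit gene Psmb9 (1.14 ± 0.27, adjusted p = 0.0378). By edgeR none of the 18 was called in MSMs, C1q-high cells (0.0193% of all genes called), classical monocytes, conventional type 2 dendritic cells (0.0674%), NK cells or B cells (0.00963%), with 5, 5, 8, 5, 1 and 1 at an unadjusted p under 0.05.

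Genes of the type I interferon response were listed as a comparison, since ISRE letters also answer to that pathway. Of 14 tested, 10 had a fitted difference below 0 in classical monocytes, with a median of -0.48, and 11 in nonclassical monocytes, with a median of -0.47, where all 10 GTPase and Irf1 differences were above 0. None of the 14 was called in either type, with 4 and 3 at an unadjusted p under 0.05. In migratory dendritic cells their median was 2.38, and Ifi204 (3.76 ± 0.86) and Irf7 (2.98 ± 0.68), both with an adjusted p of 0.0258, were called. In cDC1s, which held the 3 calls of the 10 genes, the median of the 14 was 1.75, with 11 above 0, 8 at an unadjusted p under 0.05, and 1 called, Oasl2 (2.83 ± 0.57, adjusted p = 0.00339). Of 6 MHC class II genes, 1 was called in any type, H2-DMb1 in migratory dendritic cells (1.68 ± 0.39, adjusted p = 0.0317), where 3 were at an unadjusted p under 0.05. In alpha-beta T cells 5 of the 6 were, with a median of 1.05, in nonclassical monocytes 2, in MSMs 1, and in the other 6 types 0. As given above, Lyz2 and C1qa were highest in immunized mouse 2 in the T cell libraries. Their part in the MHC class II differences was not tested.

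Within classical monocytes, cells with at least 3 of the 5 type I interferon response genes Ifit2, Ifit3, Rsad2, Cmpk2 and Oasl1 were set beside the other cells of the same mouse, with no test. Irgm1 was at 286 CPM in the 145 such cells and at 119 CPM in the other 556 cells of immunized mouse 1, at 290 and 183 CPM in the 110 and 729 cells of immunized mouse 2, and at 366 and 96.5 CPM in the 24 and 75 cells of unimmunized mouse 1. Irf1 was at 152 and 144 CPM, 260 and 263 CPM, and 126 and 109 CPM in the same groups. Irgm1 was higher in the cells with these genes in these 3 mice, as were Gbp2, Gbp3, Gbp5, Gbp7, Irgm2, Igtp and Iigp1. Igtp, for example, was at 131 and 56.4 CPM, 179 and 140 CPM, and 171 and 40.2 CPM. Irf1 was at nearly the same level, and Gbp2b was higher in 2 of the 3 mice. The fourth mouse had 2 such cells.

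Across the 48 libraries, the profiles of the 10 genes were alike to unequal degrees. Pearson's r between pairs of them was 0.19 to 0.78 with a median of 0.52. The libraries share mice, depth and cell types, so r is given as a description. Among the genes outside the list with the profile closest to the mean of the 10, of 5517, were Gapdh (r = 0.85), Psmb10 (0.84), Prdx5 (0.84), Cox6b1 (0.82), Cfb (0.82), Vdac2 (0.82), Sod2 (0.81), Aldoa (0.80) and Pkm (0.79). For Irf1 alone the closest were Psmb8 (r = 0.81), Psme2 (0.79), Plaat3 (0.75), Tnfaip2 (0.72) and Psmb10 (0.72), and among the closest for Iigp1 alone were Gapdh (r = 0.82), Ly6a (0.79), Ctsc (0.79) and Prdx5 (0.77).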

How the data were processed

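CITE-seq gene, hashtag and antibody libraries of 4 pooled mice were used. Per the study's methods and the submitters' notes, the authors mapped reads to mm10 with Cell Ranger 4.0.0 and joined both captures. The deposited values are UMI counts per gene and cell, and hashtag and antibody counts. The sources used here do not state if reads were equalized between captures. Hashtag tables did not name the capture, so 1242 barcodes (621 sequences found in each capture) were dropped. Cells were kept with at least 10 hashtag counts, at least 80% from 1 hashtag, and at most 25% mitochondrial UMIs. No doublet caller was run. Cells with several hashtags were left out, 2060 cells that passed more than 1 gate and 4201 that passed none were left out of the types, and doublets within a mouse remain.

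Counts were summed per mouse and type (libraries of at least 10 cells) and fitted with edgeR 4.0.16 (limma 3.58.1, R 4.3.3): TMM, filterByExpr and the quasi-likelihood test, with Benjamini-Hochberg adjustment over all genes at 0.05. The mouse was the replicate within a type, but libraries of 1 mouse in different types were taken as independent. As each hashtag marks 1 animal, same-numbered libraries of different types are paired by mouse. The replicate block was an alternative for the comparisons between types only. Other alternatives were HTODemux (Seurat 5.3.0), DESeq2 1.42.0, RLE factors, no filter, 10% mitochondrial UMIs, each capture, strict gates, at least 20 cells and leaving out each mouse. One more, myeloid cells without a lymphocyte UMI, was chosen after seeing the data. The scripts were tested on simulated data. The genes, lists and gates were chosen with earlier results of these data known. Text names the 10 genes, list members with called or extreme changes, and the closest profiles by correlation of log2(CPM + 1). One gene among these is not reported here.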

Additional observations from a re-analysis of the deposited data

Results flagged for a closer look

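The order of the mice for Gbp2 was opposite in NK cells and in other types, without a resolved direction in NK cells. There the fitted difference between immunized and unimmunized mice was -0.41 ± 0.94 (SE) on the log2 scale, with both immunized mice (36.1 and 33.2 CPM) below both unimmunized mice (46.9 and 48.6 CPM), whereas in 8 other types both immunized mice were above both unimmunized mice. The same was seen for Igtp, with a difference of -0.29 ± 0.68 in NK cells, 30.6 and 8.29 CPM against 30.9 and 34.7 CPM, and the opposite order in 6 other types. Neither difference between the types was tested, neither gene passed the test in NK cells, and the NK library of immunized mouse 2 held 20 cells. In NK cells the immunized mice were lower without overlap for 20.8% of all genes, so 2 of the 10 is near that share.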

How the results depend on the processing

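With 2 mice in each condition, the calls of immunization within cell types depended on the setting. The 3 calls of 100 pairs became 1 of 80 with HTODemux, 1 of 70 in myeloid cells without a lymphocyte UMI, 0 of 20 and 0 of 40 in captures 1 and 2 alone, 0 of 60 with strict gates, 0 of 30 with at least 20 cells and 37 of 100 without the filter on low counts. Leaving out 1 mouse gave 0 to 43, the most without immunized mouse 1. The 18 higher calls between types became 11 with HTODemux, 7 with DESeq2 and 37 without the filter, and 14 to 24 without 1 mouse. The 7 lower calls became 4 with DESeq2, 25 without the filter, 3 in capture 1, 12 with strict gates and 3 to 13 without 1 mouse. The paired fit with the mouse as replicate block gave 24 higher and 21 lower, and lost no call of a named gene. In the sum over all cells, the 0 calls of 10 became 8 with DESeq2, 10 without the filter and 0 to 10 without 1 mouse. Irgm1 in migratory dendritic cells was between -1.05 and 0.21 when 1 mouse was left out, above 0 only without immunized mouse 1. The cause of these changes was not tested. The share of all genes called in each setting is not given beside these counts. They therefore do not show whether the 10 genes or genes in general gained or lost calls. Where 1 mouse was left in a condition, its spread was assumed to be that of the other groups. MSM against T cell effects could not be compared with HTODemux, in capture 1, with strict gates or with at least 20 cells. The mito limit and RLE factors kept these totals within 1.5 times. Within types, the limit of 10% mitochondrial UMIs took the higher calls of C1q-high cells from 3 to 5 and those of TBM-like macrophages from 2 to 3, the lower calls of conventional type 2 dendritic cells from 2 to 1 and of alpha-beta T cells from 0 to 1, and the immunization calls of classical monocytes from 0 to 1. RLE factors took the higher calls of TBM-like macrophages from 2 to 3 and of C1q-high cells from 3 to 4, and the immunization calls of cDC1s from 3 to 2. Low depth limits the libraries of few cells, such as the 15 MSMs of immunized mouse 2 (59976 UMIs).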
